A study of Homo sapiens with 2 samples.

Results

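The 10 genes followed here belong to autophagy, and each was read in HT-29 cells by every probe set that the array's annotation assigns to it. They are the cargo receptor SQSTM1, the ATG8 family genes MAP1LC3B, GABARAP, GABARAPL1 and GABARAPL2, the initiation genes ULK1, BECN1 and WIPI1, and the conjugation genes ATG5 and ATG12. The rule takes genes by name and uses no measured value, but the 10 genes were chosen with earlier results of these data known. All 10 of 10 had at least 1 probe set assigned to them alone, out of 19775 genes with such a probe set on the array. HT-29 is an established line from a human colorectal adenocarcinoma. Spheroids were grown from monolayer cells on low-adhesion plates and harvested after 5 days in a stem cell medium with the supplement B27 and the growth factors EGF and FGF. Monolayer cells were kept on tissue culture plates in medium with fetal bovine serum, so the growth form and the medium differed together and cannot be told apart. RNA of each culture was measured on 1 array, without replicates. No test could be run, and every difference below is between 2 arrays.

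Autophagy encloses cytoplasm in a double membrane, the autophagosome, and delivers it to the lysosome. The ULK1 kinase complex starts the process and is held back by mTORC1. The lipid kinase complex that holds BECN1 then makes the phosphoinositide to which WIPI proteins bind. ATG12 is joined to ATG5, and with ATG16L1 this conjugate attaches the ATG8 proteins, LC3 and GABARAP, to a lipid of the growing membrane. Receptors such as SQSTM1, also known as p62, bind ubiquitinated cargo and LC3 at once and are themselves degraded with it. These signals measure mRNA, and neither lipid-bound LC3, the amount of p62 protein nor the flux through the pathway was measured on these arrays.

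The values are MAS5 signals, intensities on a linear scale as the authors deposited them, whose trimmed mean was 500.1 on both arrays. A signal under 62.7, the median of all signals, was treated as not above background, and a log2 difference is the spheroid minus the monolayer value. On this scale 13183 genes were measured on 1 or both arrays, with a median log2 difference of -0.05 and 80% of them between -0.63 and 0.57. Between probe sets of the same gene the difference had an SD of 0.41 (5506 genes), which is used below as the only measure of spread available and is not a replicate error. Reference genes lay between -0.38 (HPRT1) and 0.02 (B2M) by the brightest probe set of each, although another probe set of B2M was at 0.72. All 18 of 18 hybridisation spike-ins were dimmer in the spheroid hybridisation, with a mean difference of -0.25. The epithelial markers EPCAM, KRT8, KRT18, KRT20 and CDH1 passed the floor on both arrays and VIL1, CDX2 and CEACAM5 on 1 of them, while CDH17 and LGALS4 were under it on both. Of markers of fibroblasts, blood cells and endothelium 10 of 14 were under the floor on both arrays. The others were COL1A1 and COL1A2, HBB and PECAM1, and the summed signals of each list in spheroids and monolayer were 2174 and 1547 for fibroblasts, 224.6 and 302.1 for blood cells and 142.8 and 241.6 for endothelium. In bulk RNA, fewer cells that express a gene and less RNA per cell cannot be told apart.

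None of the 10 genes differed by 2-fold between spheroids and monolayer, the threshold that the study's methods state. By the probe set that stands for each gene, the one with the highest mean signal, 0 of 10 were higher in spheroids by 2-fold or more and 0 of 10 lower by as much, where the shares of all measured genes were 2.53% and 3.08%. The differences ran from 1.42-fold lower (ATG12) to 1.50-fold higher (ATG5). In all 8 genes were lower and 2 higher in spheroids, with a median log2 difference of -0.23, where 54.8% of all measured genes were lower. Relative to the hybridisation spike-ins, however, 4 were lower and 6 higher, with a median of 0.01. That scaling moved the median of all measured genes to 0.18, against -0.05 as deposited. The differences of 9 of the 10 genes lay between the 10th and 90th percentiles of all measured genes, and ATG5 lay just above them. For 7 of the 10 the difference was smaller than the SD between probe sets of one gene. The same held for most measured genes, whose 25th and 75th percentiles were -0.33 and 0.25.

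**Figure D1:**
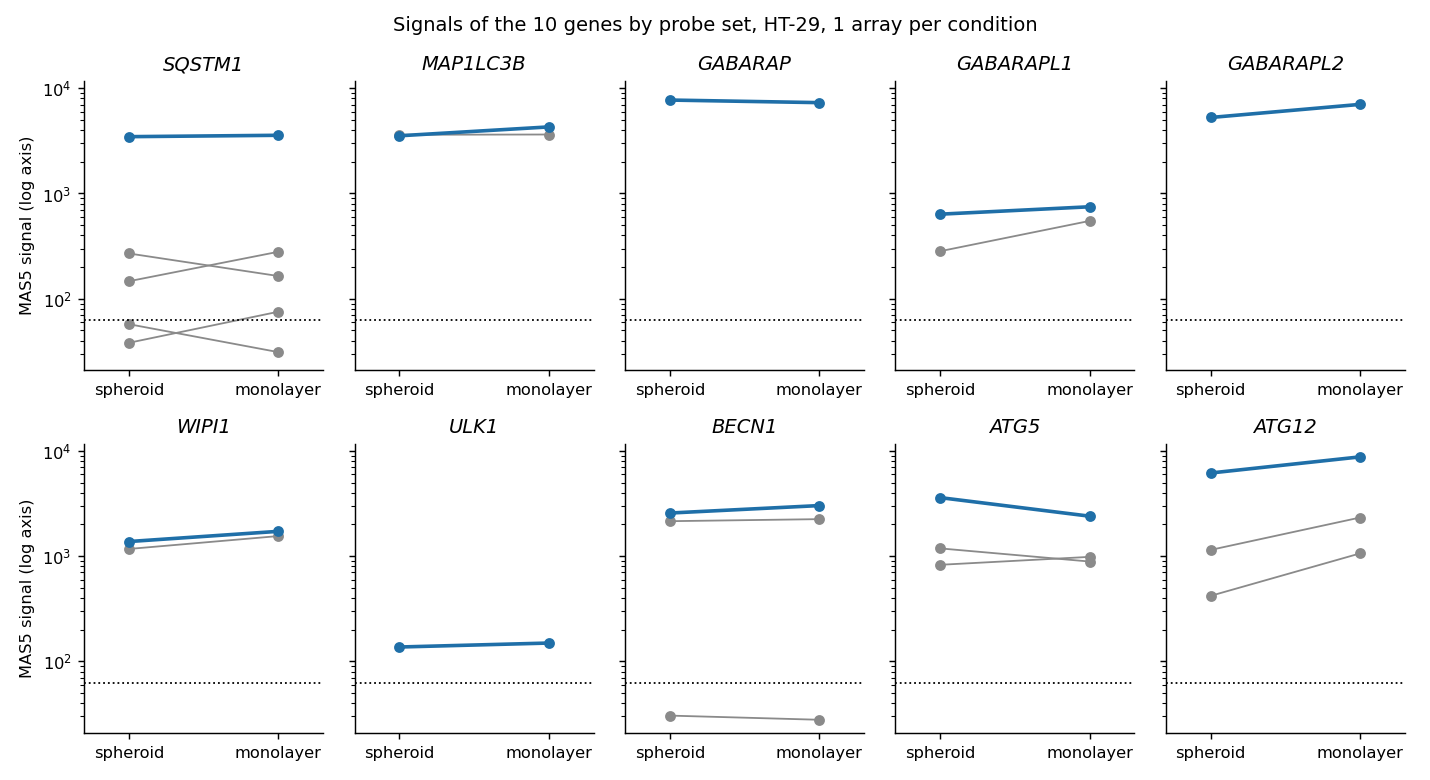
MAS5 signal (log axis) in HT-29 spheroids (left) and monolayer (right) of every probe set assigned to 1 of the 10 genes alone, 1 array per condition. Blue marks the brightest probe set of each gene, grey the others, and the dotted line the floor of 62.7. The lines of ATG12 all run lower in spheroids, those of ATG5 and SQSTM1 cross, and 1 probe set each of SQSTM1 and BECN1 lies under the floor on both arrays.

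The 4 ATG8 genes among the 10 showed small differences by the probe sets that stand for them, and the largest of the 4 was that of GABARAPL2. MAP1LC3B, which encodes the LC3B protein that is the usual marker of autophagosomes, had a signal of 3531 in spheroids and 4288 in monolayer by probe set 208785_s_at, 1.21-fold lower. Its other probe set, 208786_s_at, read 3611 in spheroids and 3631 in monolayer, a log2 difference of -0.01. One probe set thus placed MAP1LC3B lower in spheroids and the other placed it level, and their gap of 0.27 is within the SD between probe sets. GABARAP, the founder of the second branch of the family, had a signal of 7716 in spheroids and 7292 in monolayer, a log2 difference of 0.08. GABARAPL2, also called GATE-16, had 5269 in spheroids and 7020 in monolayer, 1.33-fold lower. These 2 genes have 1 probe set each, so each rests on a single reading.

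GABARAPL1, a member that starvation and FOXO factors are known to induce, was lower in spheroids by both of its own probe sets, to unequal degrees, although the brighter one was at 0.01 relative to the spike-ins. The brighter probe set, 208869_s_at, read 635.7 in spheroids and 747.4 in monolayer, a log2 difference of -0.23. Probe set 208868_s_at read 282.9 in spheroids and 548.7 in monolayer, a log2 difference of -0.96 that is just short of 2-fold. Another probe set, 211458_s_at, is assigned to GABARAPL1 and to its near-identical relative GABARAPL3 together, so it names neither, and it was 1.27-fold lower with 1969 in spheroids and 2495 in monolayer. All of these readings were lower in spheroids, but probe sets with the suffix _s_at can match more than 1 transcript, and 14 of the 23 probe sets of the 10 genes carry it. Near-identical copies also exist for MAP1LC3B, and the probe set of MAP1LC3B2 was under the floor on both arrays.

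The 100 bases before the start of MAP1LC3B are shown because they hold the sole match, in capitals, among the 10 genes to the core of the antioxidant response element, which NRF2 binds. The stretch is chr16:87392236-87392335 on the plus strand of GRCh38.p14 (RefSeq), read 5′ to 3′.
MAP1LC3B: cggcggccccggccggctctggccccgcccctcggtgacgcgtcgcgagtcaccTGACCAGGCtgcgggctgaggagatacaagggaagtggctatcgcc
Promoters of all 10 genes were in the RefSeq table, as 13 windows, since SQSTM1 and ATG5 have several starts. Letters were searched on both strands in the 250 bases before each start. The antioxidant core, TGACNNNGC, was in 1 of the 13 windows and in 10.9% of 35116 windows of the same length. The E-box CACGTG, to which TFEB and its relatives bind, was in 0 of 13 and in 6.34% of all, and the longer TCACGTGA, which contains it, in 0 of 13 and 0.854%. TGATGNAA, read by ATF4 and CHOP, was in 0 of 13 and 3.14%, and the heat shock half-site pair TTCNNGAA in 0 of 13 and 6.62%. CCAAT was in 3 of 13 windows, 1 each of ATG5, BECN1 and WIPI1, and in 32.0% of all. A match describes letters in a window and does not show a bound site.

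SQSTM1 differed little by its brightest probe set and unequally by the others. Probe set 201471_s_at read 3464 in spheroids and 3570 in monolayer, a log2 difference of -0.04. Probe set 239004_at read 269.0 in spheroids and 164.2 in monolayer, 1.64-fold higher, whereas 213112_s_at read 146.7 in spheroids and 279.3 in monolayer, 1.90-fold lower. These 2 differ by 1.64 on the log2 scale, the widest range within any of the 10 genes. Probe set 244804_at was under the floor in spheroids and at 75.3 in monolayer, at least 1.20-fold lower, and 242568_s_at was under the floor on both arrays. No direction for SQSTM1 mRNA can therefore be read from these arrays, and the cause of the disagreement was not tested.

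**Figure D2:**
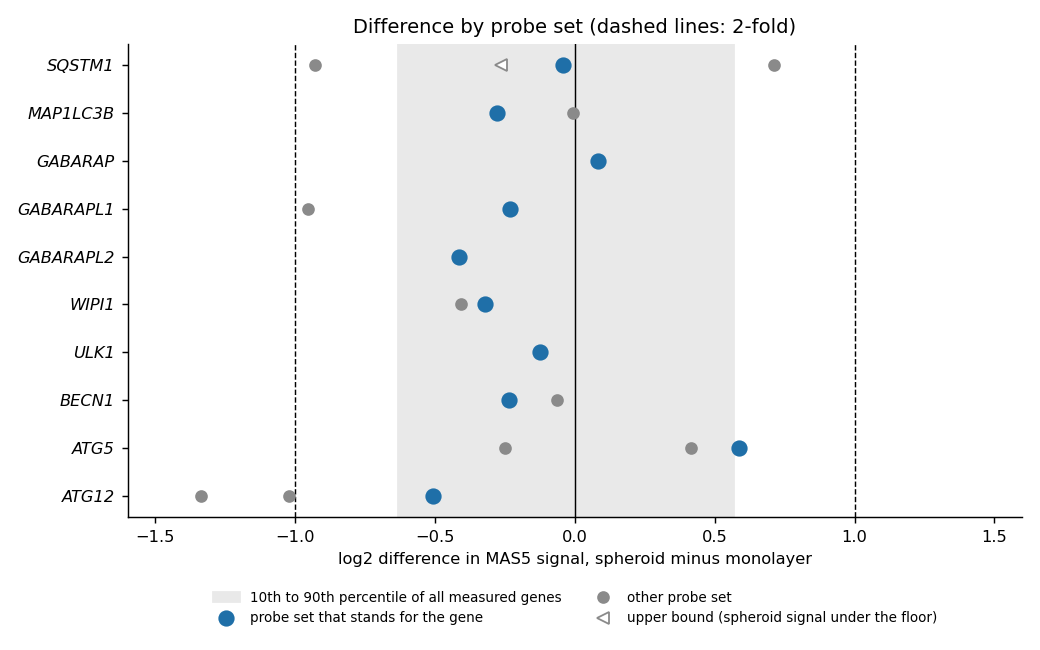
Log2 difference in MAS5 signal (HT-29 spheroids minus monolayer) of each probe set of the 10 genes, 1 array per condition. Each gene is represented by its blue dot, with its further probe sets in grey, the open triangle an upper bound, the grey band the 10th to the 90th percentile of all measured genes and dashed lines 2-fold. Only 2 probe sets, both of ATG12, lie beyond a dashed line, and those of SQSTM1 spread to both sides of 0.

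The genes of initiation were slightly lower in spheroids on the deposited scale, and of them WIPI1 alone was lower under every scaling. ULK1, the kinase at the top of the pathway, had a signal of 137.1 in spheroids and 149.5 in monolayer by its only probe set, a log2 difference of -0.13. BECN1, the Beclin 1 subunit of the lipid kinase complex, had 2569 in spheroids and 3024 in monolayer by 208946_s_at (-0.24). Its second probe set, 208945_s_at, read 2149 in spheroids and 2248 in monolayer (-0.06), and 1561652_at was under the floor on both arrays. Both differences of BECN1, and that of ULK1, were smaller than the SD between probe sets, and relative to the spike-ins ULK1 was at 0.12 and BECN1 at 0.01. WIPI1, which binds the phosphoinositide that the BECN1 complex makes, had 1377 in spheroids and 1721 in monolayer by 213836_s_at, 1.25-fold lower. Probe set 203827_at read 1171 in spheroids and 1552 in monolayer, 1.33-fold lower. The readings of WIPI1 lay 0.08 apart, the closest pair among the genes with several probe sets above the floor.

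ATG12 and ATG5, whose products are joined to each other, differed in opposite directions and had the lowest and the highest log2 difference of the 10 genes. ATG12, the ubiquitin-like partner, had a signal of 6167 in spheroids and 8774 in monolayer by 213026_at, 1.42-fold lower. Probe set 204833_at read 1147 in spheroids and 2328 in monolayer, 2.03-fold lower, and 213930_at read 419.9 in spheroids and 1062 in monolayer, 2.53-fold lower. All 3 probe sets of ATG12 were lower in spheroids, with log2 differences of -0.51, -1.02 and -1.34. ATG12 was still at -0.26 relative to the spike-ins, the smallest difference under any setting tried. With the median of its probe sets in place of the highest one, ATG12 was past 2-fold, the only 1 of the 10 genes to be so.
ATG5, the acceptor of ATG12, had 3597 in spheroids and 2398 in monolayer by 202511_s_at, 1.50-fold higher. Probe set 210639_s_at read 1185 in spheroids and 889.1 in monolayer, 1.33-fold higher, while 202512_s_at read 828.0 in spheroids and 984.6 in monolayer, 1.19-fold lower. Thus 2 of the 3 probe sets of ATG5 were higher in spheroids and 1 lower, over a range of 0.84. The probe set that stands for ATG5 was above 0 under all 4 other scalings, at 0.51 to 0.83.

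The 250 bases before the starts of ATG12 and ATG5 are shown because these genes bound the range of differences. Both are read 5′ to 3′ on the minus strand of GRCh38.p14 (RefSeq), at chr5:115841566-115841815 for ATG12 and chr6:106325438-106325687 for ATG5, and neither holds any of the letters searched, so no base is in capitals.
ATG12: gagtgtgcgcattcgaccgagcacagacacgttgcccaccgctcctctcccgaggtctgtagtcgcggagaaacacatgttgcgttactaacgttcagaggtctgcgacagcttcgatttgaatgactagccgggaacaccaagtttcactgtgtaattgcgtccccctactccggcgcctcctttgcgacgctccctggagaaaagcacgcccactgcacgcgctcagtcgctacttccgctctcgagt
ATG5: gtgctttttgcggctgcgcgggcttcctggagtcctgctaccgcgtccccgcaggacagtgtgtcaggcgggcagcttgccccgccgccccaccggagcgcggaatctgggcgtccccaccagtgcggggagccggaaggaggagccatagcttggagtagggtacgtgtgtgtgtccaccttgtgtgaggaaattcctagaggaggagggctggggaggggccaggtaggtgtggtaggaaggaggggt
The window of ATG12 has a GC content of 57.6% and that of ATG5 66%. A second RefSeq start of ATG5 has an AT-rich window with a GC content of 26.4%, which holds its CCAAT match. Which start HT-29 cells use was not measured.

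Counted by probe set, 21 of the 23 were above the floor on 1 or both arrays. Of these 21, 17 were lower in spheroids and 4 higher. The share lower among all probe sets was not computed, and the 54.8% above counts genes by 1 probe set each. The median log2 difference of the 21 was -0.25, against -0.01 over 24786 probe sets assigned to 1 gene. At least 2-fold lower were 2 of the 21, where 3.14% of all such probe sets were, and at least 2-fold higher were 0, where 3.66% were. Relative to the spike-ins 10 of the 21 were higher and 11 lower, with 1 past 2-fold, and with median scaling 4 were past 2-fold, the added 2 being 208868_s_at of GABARAPL1 and 213112_s_at of SQSTM1. Both probe sets past the threshold on the deposited scale belong to ATG12, so they are 2 readings of 1 gene and not 2 genes. Of the 7 genes with several probe sets above the floor, 5 had all of them on one side of 0 on the deposited scale, the exceptions being SQSTM1 and ATG5. Of the 5, MAP1LC3B counts only by a probe set at -0.01, and the share over all genes was not computed. In 4 of the 7, namely SQSTM1, GABARAPL1, ATG5 and ATG12, the range between probe sets exceeded the SD of 0.41. A range over several values often exceeds their SD, and the share of all genes that did so was not computed. For these 4 genes the difference depends on which probe set is taken.

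**Figure D3:**
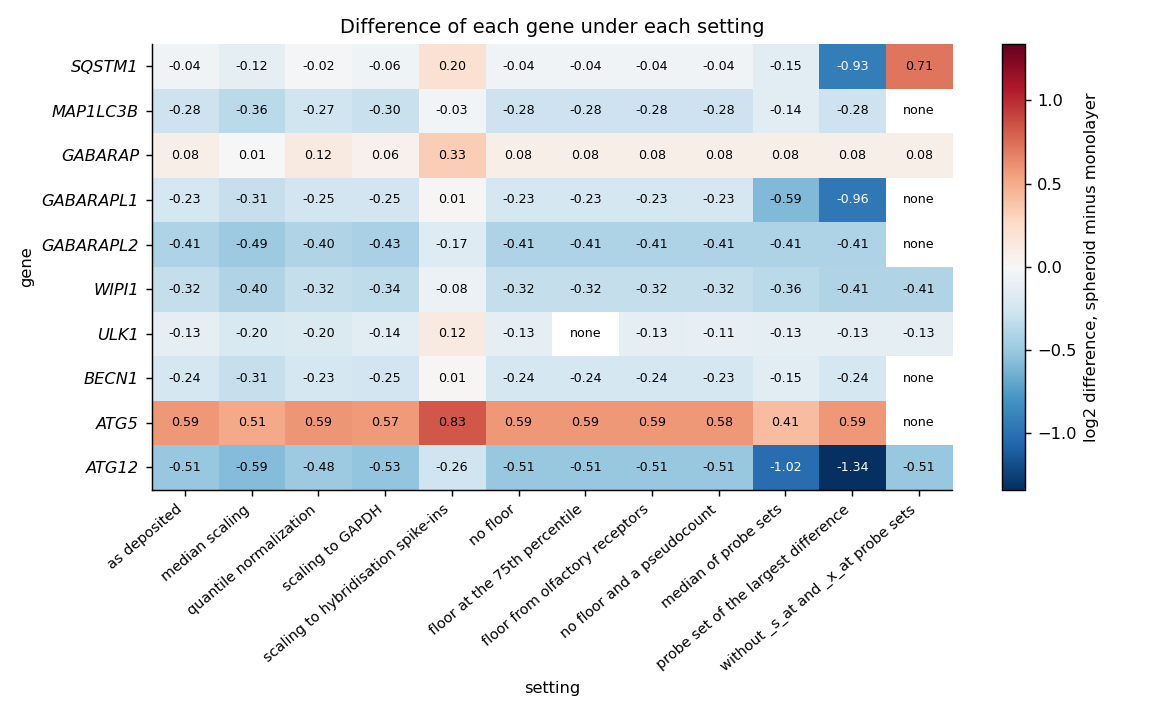
Log2 difference in MAS5 signal (HT-29 spheroids minus monolayer) of each of the 10 genes (down) under each way of computing it (across), 1 array per condition. ATG5 is above 0 and ATG12 under 0 in every column that has a value, whereas SQSTM1 runs from -0.93 to 0.71 with the choice of probe set.

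The rest of the autophagy machinery was within 2-fold as well on the deposited scale, by the probe set that stands for each gene. Its balance of signs, like that of the 10 genes, turned only with scaling to the spike-ins. With median, quantile and GAPDH scaling most genes of both stayed lower in spheroids. Of 66 other genes, 63 were measured, and 0 of them reached 2-fold, where 2.53% of all measured genes were higher and 3.08% lower by as much. Dimmer probe sets of some passed 2-fold, at 1.10 for VPS18 and at bounds of 1.08 for CALCOCO2, 1.95 for PIK3C3 and -1.26 for ATG7. Relative to the spike-ins 1 of the 63 genes reached 2-fold, STX17, 2.19-fold higher. By sign 22 of the 63 were higher and 41 lower in spheroids, with a median log2 difference of -0.14, where 54.8% of all measured genes were lower. Relative to the spike-ins, however, 39 were higher and 24 lower, with a median of 0.10. Among 18 measured receptors besides SQSTM1 the median was -0.12. NBR1, the receptor most like SQSTM1 in its domains, had 2012 in spheroids and 3205 in monolayer, 1.59-fold lower, and a second probe set was at -0.41. BNIP3L, a mitochondrial receptor, had 7412 in spheroids and 5295 in monolayer, 1.40-fold higher, with its second probe set at 0.69. Its relative BNIP3 was at 0.14 by the brighter probe set and at -0.33 by the other. BNIP3L was the highest of the receptors and NBR1 the lowest. BCL2L13, another mitochondrial receptor, was at -0.51 and RETREG1, a receptor of the endoplasmic reticulum, at -0.38. Of the remaining ATG8 genes MAP1LC3A was at -0.47, with signals near the floor, 94.97 in spheroids and 131.7 in monolayer, and MAP1LC3C was under the floor in spheroids.

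In the conjugation group, which makes and recycles lipid-bound LC3, 7 of 9 genes besides ATG5 and ATG12 were lower and 2 higher, with a median of -0.17. ATG10 and ATG7, the enzymes that join ATG12 to ATG5, were at -0.42 and -0.39, and ATG3, which attaches LC3 to its lipid, at -0.24. Other probe sets had the opposite sign, at 0.91 for ATG10 and 0.22 for ATG7, and one of ATG7 was under the floor in spheroids with a bound of -1.26. ATG16L1, the partner of the conjugate, was at -0.11. By the probe sets that stand for them, ATG10 alone of the 9 was past the SD between probe sets, and relative to the spike-ins 7 of the 9 were higher. Of the 4 genes of the ULK1 complex RB1CC1, the scaffold FIP200, was at -0.41 by one probe set and 0.00 by the other, and ATG101 was at -0.15 by its only one. ATG13 was at 0.34 by its brightest probe set but at -0.70 and -0.75 by its other 2, and ULK2 was at 0.19 by its brightest but at -0.24 and -0.22 by 2 others that passed the floor on both arrays, so neither has a settled direction. In the lipid kinase complex RUBCN, an inhibitor of the pathway, was 1.42-fold lower and the catalytic subunit PIK3C3 1.25-fold lower by its brightest probe set, with another at 0.26 and one that only the spheroid array measured at a bound of 1.95, the other 6 of the 8 genes lying between -0.12 (ATG14) and 0.11.

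The fusion group held both the highest and the lowest difference of the machinery. Membrane supply ran from -0.54 to 0.72. ATG2B, a lipid transfer protein, had 600.3 in spheroids and 365.1 in monolayer, 1.64-fold higher, with a second probe set at 0.65. TMEM41B, a scramblase of the endoplasmic reticulum, was at 0.66 by one probe set and 0.05 by the other. WIPI2, the relative of WIPI1 that recruits ATG16L1, was at -0.54, and its further probe sets lay between -0.36 and 0.44. STX17, the syntaxin through which autophagosomes fuse with lysosomes, had 641.7 in spheroids and 346.8 in monolayer, 1.85-fold higher, and was the highest of the 63 genes, 2.19-fold higher relative to the spike-ins. Of 3 further probe sets above the floor throughout 2 were higher, at 0.84 and 0.24, and 1 lower, at -0.19. TECPR1 was the lowest, at -0.68 with its other probe sets at -0.22 and -0.04, and VPS41, a subunit of the tethering complex HOPS, was at -0.55. Over 13 fusion genes 3 were higher and 10 lower, with a median of -0.20 (7 higher and 6 lower relative to the spike-ins), and over 9 membrane supply genes 5 were higher and 4 lower, with a median of 0.15.

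**Figure D4:**
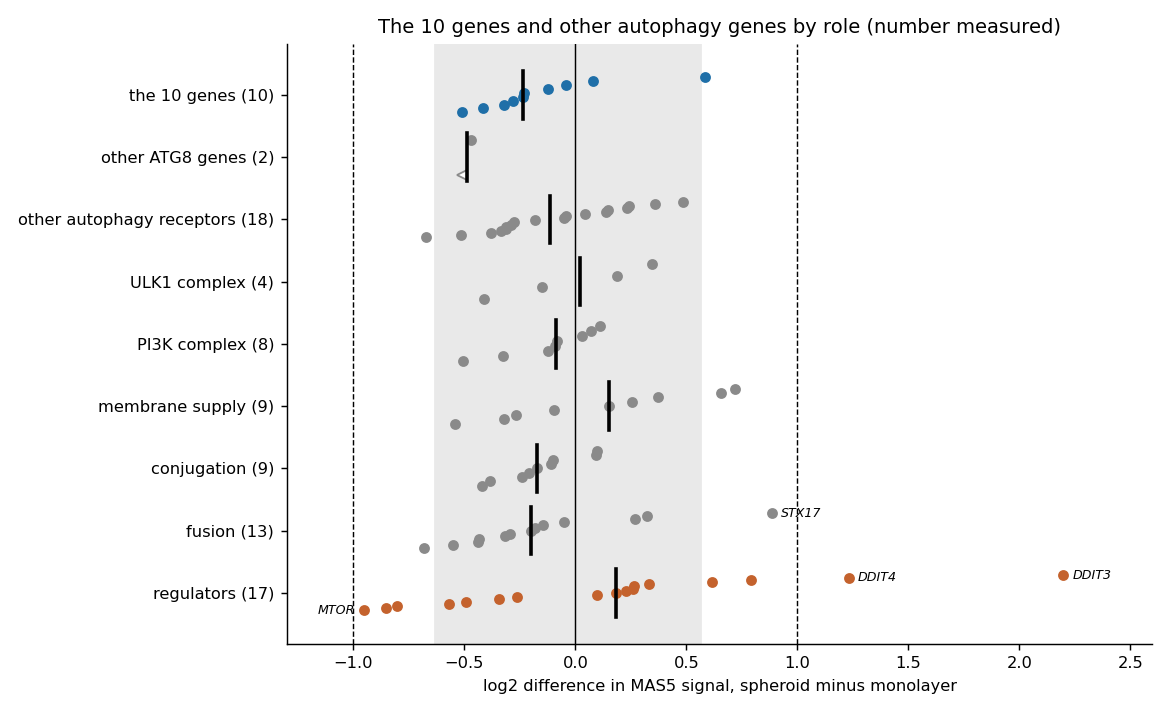
Log2 difference in MAS5 signal (HT-29 spheroids minus monolayer) of the 10 genes (blue), the other autophagy machinery by role (grey) and regulators (orange), 1 dot per gene and 1 array per condition. Black bars are medians, the open triangle an upper bound, the grey band the 10th to the 90th percentile of all measured genes and dashed lines 2-fold. DDIT4 and DDIT3 alone lie beyond a dashed line, STX17 is highest of the machinery, and the 10 genes lie mostly left of 0 on this scale, though not relative to the spike-ins.

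Differences of the pathway's 17 measured regulators ran from -0.95 to 2.20, where those of the other machinery ran from -0.68 to 0.89. The lists were chosen with earlier results of these data known, so these ranges are a description only. Of the 17, 2 were higher by 2-fold or more, where 2.53% of all measured genes were, and 0 lower, where 3.08% were. The 2 higher ones were DDIT3 and DDIT4. DDIT3, the gene of CHOP, had 2769 in spheroids and 603.7 in monolayer. DDIT4, the gene of the mTORC1 inhibitor REDD1, had 29030 in spheroids and 12350 in monolayer, 2.35-fold higher. SESN2, a stress-induced inhibitor of mTORC1, was 1.73-fold higher (2.05-fold relative to the spike-ins), with its second probe set at 0.24. TBK1, the kinase that phosphorylates SQSTM1 and other receptors, had 3112 in spheroids and 2032 in monolayer, 1.53-fold higher by its only probe set. MTOR itself was at -0.95 by the probe set that stands for it, which was 2.04-fold lower with median scaling. A dim probe set of MTOR measured in spheroids alone had a bound of 0.20. PRKAA2, an alpha subunit of AMPK, was at -0.80 with a spheroid signal near the floor, and dim probe sets had bounds of 0.09 and -0.21. PRKAA1, the other alpha subunit, was brighter and at 0.10, with further probe sets at 0.05 and -0.22. Among the transcription factors that drive autophagy and lysosome genes MITF was 1.81-fold lower, with a second probe set at -0.78, and TFEB was at -0.57 by one probe set and -0.04 by the other. TFE3 was at 0.23 with a second probe set at 0.38, and FOXO1 was at -0.49 with a second at -1.01. FOXO3 was at 0.26 by its brightest probe set, but its 4 probe sets ran from -0.68 to 1.14, so no direction can be read for it. NFE2L2, the gene of NRF2, was at 0.26 by its brightest probe set and at 0.66 by another. A further probe set of NFE2L2, under the floor in spheroids, had a bound of -0.57. KEAP1, the NRF2 inhibitor that SQSTM1 binds, was at 0.33. How these regulators relate to the 10 genes was not tested.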

How the data were processed

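RNA from HT-29 spheroids and monolayer cells (1 array each, analysed here) was labelled with a 3'IVT kit and hybridised to the Human Genome U133 Plus 2.0 array. The authors used Affymetrix Expression Console (version not given in the sources used here) to make MAS5 signals, and deposited them as intensities on a linear scale, for 54675 probe sets, without detection calls. The methods speak of duplicates, but 1 array per condition is in the table used here. This number limits the precision, and no replicate error exists.

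Probe sets were named through the platform annotation, with gene numbers matched to current RefSeq symbols. A single gene is given for 41097 of them, several genes for 1801, which named none, and 11777 are unlisted. Lower signals were raised to a floor at the 50th percentile before the log2 step. A gene was represented by its brightest probe set (mean log2 signal), and one measured on 1 array only has a bound. The threshold was 2-fold. The 10 genes and the lists of other autophagy genes were chosen with earlier results of these data known. All 10 genes are given with every probe set. Of each other list, those past 2-fold and up to 3 more with the largest difference are named, and further genes, chosen after their values were seen, complete a list. Promoter sequences are from RefSeq (GRCh38.p14). Alternatives were other scalings, floors, a pseudocount, choices of probe set and a 3-fold threshold. Calculations used Python 3.11.15, numpy 2.4.6, pandas 2.3.3 and matplotlib 3.10.9, and were tested on simulated data.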

Additional observations from a re-analysis of the deposited data

How the results depend on the processing

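The count of genes at least 2-fold lower in spheroids was 0 of 10 and became 1, ATG12, when probe sets were summarised by their median (1 gene) or by the most different one (1 gene). It stayed 0 under the other alternatives, and the count at least 2-fold higher was 0 under all of them. The median log2 difference of the 10 genes ran from -0.34 (most different probe set) to 0.01 (scaling to spike-ins) and was under 0 in all settings but the spike-in one. By single gene, the difference moved by more than the SD between probe sets in 5 recomputed values and by less in 99, the 5 being ATG12 (-1.02 with the median of probe sets and -1.34 with the largest), GABARAPL1 (-0.96 with the largest) and SQSTM1 (-0.93 with the largest and 0.71 without _s_at and _x_at probe sets). Leaving out such probe sets left values for 5 genes, and a floor at the 75th percentile (386.0) left none for ULK1. Scaling to the spike-ins gave 5.29% of all genes at least 2-fold higher and 1.43% lower, and median scaling 1.95% and 3.78%, against 2.53% and 3.08% as deposited. Without a floor these shares were 12.5% and 12.7%, with a pseudocount in its place 6.67% and 7.06%, with a floor at the 75th percentile 1.20% and 0.892%, and with the most different probe set 5.96% and 5.40%. No paired analysis was possible because each condition has 1 array. Signals near the floor, as for ULK1, MAP1LC3A and the dim probe sets of SQSTM1, have the least margin over background.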

Other observations

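Some of the 10 genes start close to another gene on the opposite strand, and the signals of those neighbours were read after the values above were seen. AP3S1, a subunit of the adaptor complex AP-3, starts 370 bases from ATG12 in RefSeq. Its only probe set read 19067 in spheroids and 32973 in monolayer, 1.73-fold lower, so that both genes of this head-to-head pair were lower in spheroids. MGAT4B, a glycosyltransferase gene that starts 143 bases from a start of SQSTM1, had 5754 in spheroids and 7428 in monolayer, 1.29-fold lower. FBXO31, which starts 215 bases from MAP1LC3B, had 983.4 in spheroids and 1098 in monolayer, 1.12-fold lower, while another probe set was 1.19-fold higher. Whether these neighbours share control was not tested.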
